A study of Rattus norvegicus with 4 samples.

Results

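The 10 cytokine genes described here are Il6, Il10, Il12a, Il12b, Il23a, Csf1, Csf2, Csf3, Osm and Lif. They were taken by name, through the RefSeq accession of each array probe, and all 10 were present, with 14 probes among the 16579 genes measured. The cells were NR8383, a macrophage line that was derived from the lung lavage of a normal rat and grows partly attached and partly floating. All 4 arrays carried RNA from cultures at passage 20 that had been seeded 48 h earlier and kept for 4 h with NRCWE042, carbon nanotubes bearing carboxyl groups, at 6.8 cm2 of nanotube surface per cm2 of culture. The study's question was how this exposure changes expression against unexposed cultures. Unexposed samples were not analysed here, so every value below is a level in exposed cells and none is an effect of the nanotubes.

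These genes encode secreted proteins with which macrophages instruct other cells. Interleukin 6, oncostatin M and leukaemia inhibitory factor signal through receptors that share the chain gp130, encoded by Il6st, and pass the signal on mainly through STAT3. Interleukin 10 restrains macrophage activation, while interleukins 12 and 23, which share the subunit encoded by Il12b, direct T cells and natural killer cells. The colony-stimulating factors control the production and survival of macrophages and granulocytes, and GM-CSF, the product of Csf2, is needed for alveolar macrophages to mature.

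As a check of the labelled cell type, 9 of 11 measured macrophage markers, among them Cd68, Spi1, Pparg and Csf1r, were well above background on all 4 arrays. Marco and Adgre1 were well above background on no array. Of the markers of other cell types, 2 of 6 T cell genes (Cd3d and Cd4) were well above background on all 4 arrays. Those counts were 1 of 6 fibroblast genes (Dcn), 1 of 5 neutrophil genes (Camp), 0 of 6 epithelial genes and 0 of 5 mast cell genes. The mast cell gene Hdc was well above background on 3 arrays and the epithelial gene Krt18 on 1. "Well above background" is the mark that the scanner software gives to a spot, and a gene with such a mark on at least 1 probe on every array is called detected below.

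Csf3 and Osm were the 2 detected members. The other 8, namely Il6, Il10, Il12a, Il12b, Il23a, Csf1, Csf2 and Lif, were well above background on no array. Over all measured genes 44.4% were detected and 46.1% were well above background on no array, against 20.0% of the 10 cytokines detected. No test was made of this difference, because genes are not replicates. The arrays read pooled RNA of a culture, so a low level in all cells and a higher one in few cells cannot be told apart. Every member was marked on all 4 arrays or on none, and Csf3 and Osm have 1 probe each. Leaving out any 1 array or asking for 3 of the arrays could therefore not change the 2 detected genes. Counting a gene only if each of its probes passed could not change them either. Under the software's looser mark, which asks only that a spot is positive and significantly above background, Lif joined them, making 3 of 10 beside 55.4% of all genes.

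**Figure D1:**
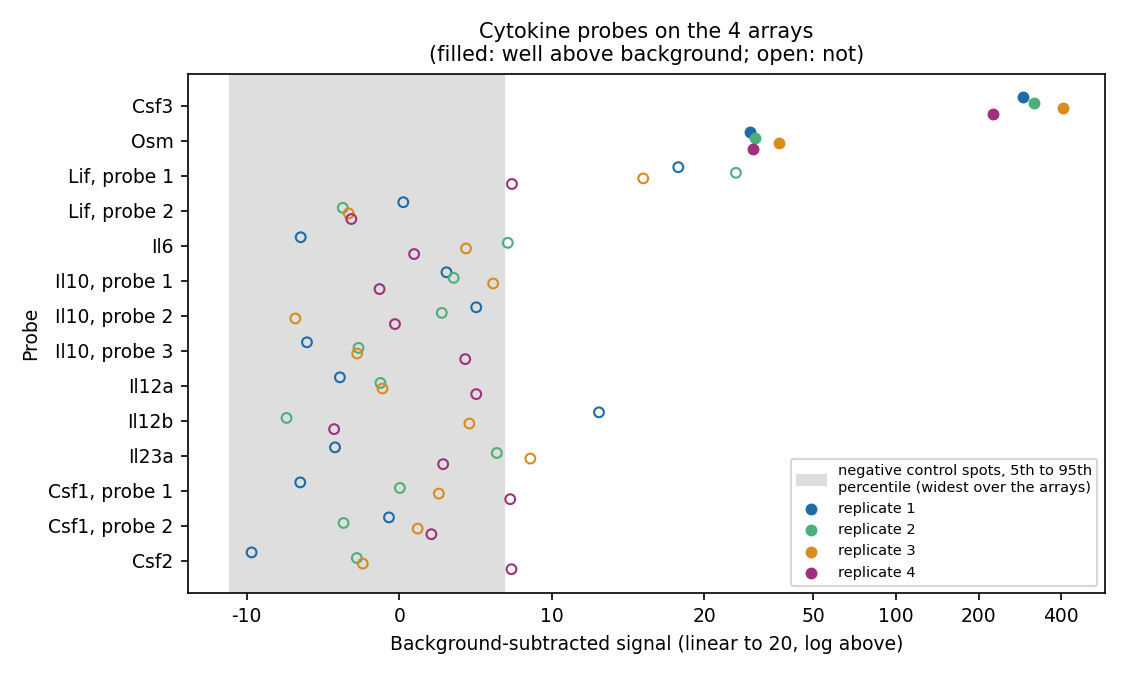
Background-subtracted signal of the 14 cytokine probes (vertical axis) on each of the 4 arrays; the horizontal axis is linear up to 20 and logarithmic above, in scanner units. Filled points are well above background and open points are not; the grey band spans the 5th to 95th percentile of the 308 negative control spots, at its widest over the arrays. Csf3 lies between 226 and 406, Osm between 29.4 and 37.6, and the first Lif probe between 7.39 and 26.1, while the remaining points lie at 13.1 or lower.

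Csf3 encodes G-CSF, the cytokine that drives the production and release of neutrophils. Its probe (NM_017104) gave processed signals of 324, 351, 375 and 230 on replicates 1 to 4, the mean being 320 ± 63.4 (SD, n = 4). Signal here is the scanner software's brightness of the spot after its background correction. All 4 readings exceeded all 308 negative control spots of their array, which are copies of 1 probe sequence. Replicate 4 was the lowest in this unit, but its array was also the dimmest, with a 75th percentile of 49.0 over sample probes against 128, 131 and 98.5 on the others. Set against that percentile, on the log2 scale used for all levels below, Csf3 read 1.34, 1.42, 1.93 and 2.23, a mean of 1.73 ± 0.42 (SD, n = 4). On this scale replicate 4 was the highest, and replicates 1 and 2 lay close together below replicates 3 and 4. The replicates spanned 1.86-fold as levels and 1.63-fold as signals. The software's own error for the spot was 10.1 to 10.2% of the signal, or 0.15 log2 units; this covers the spot alone, while the SD between arrays also takes in the scaling and all other differences between cultures and arrays. The SD of the log2 signal before any scaling was 0.31. As a level, the SD of 0.42 exceeded that of 79.6% of detected genes, whose median was 0.25, but scaled on added control RNA it was 0.25 against a median of 0.58, so its place among genes depended on the scale.

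Osm encodes oncostatin M, a gp130 cytokine made largely by activated macrophages and neutrophils. Its probe (NM_001006961) gave signals of 29.5, 30.3, 36.0 and 29.8, a mean of 31.4 ± 3.10 (SD, n = 4). These lay little above the dimmest signals that were well above background, which were 21.7, 24.6, 23.2 and 20.8 on the 4 arrays. No negative control spot reached the Osm reading on replicates 1, 2 and 4, and 3 of 308 did on replicate 3. On replicate 3 the well above background mark was itself set on 3 negative control spots, and on the other arrays on none. As levels the replicates read -2.12, -2.11, -1.45 and -0.72, a mean of -1.60 ± 0.67 (SD, n = 4). The signal thus stayed within 1.22-fold across the arrays, while the level spanned 2.63-fold, with replicate 4 at the top. The spot error was 0.28 log2 units, and the SD of the log2 signal, before any scaling, was 0.14. The SD of the level exceeded that of 97.3% of detected genes, but this too depended on the scale: with normexp background correction and quantile normalization it was 0.21 against a median of 0.20 over detected genes, and scaled on added control RNA 0.06 against 0.58.

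The order of the arrays for Csf3 and Osm turned on the scaling. When arrays were scaled on 280 spots of 8 spike-in probes, which carry added control RNA, Csf3 read 1.77, 1.98, 1.79 and 1.38, with replicate 4 now lowest. Osm read -1.68, -1.56, -1.59 and -1.57, an SD of 0.06 in place of 0.67. With the spike-in scale the typical detected gene itself deviated from its mean by 0.37, 0.49, -0.09 and -0.75 on replicates 1 to 4. Taken relative to that gene, Csf3 deviated by -0.32, -0.24, 0.14 and 0.40, and Osm by -0.45, -0.45, 0.09 and 0.78, which are the same values as with the 75th percentile because either scale moves all genes of an array together. In these terms replicates 1 and 2 were the lower pair and replicates 3 and 4 the upper pair for both genes. With normexp background correction and quantile normalization the Osm deviations shrank to -0.10, -0.10, -0.08 and 0.26, so that only replicate 4 lay above the typical gene, while those of Csf3 were -0.31, -0.25, 0.21 and 0.32. What sets the 4 arrays apart was not tested.

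**Figure D2:**
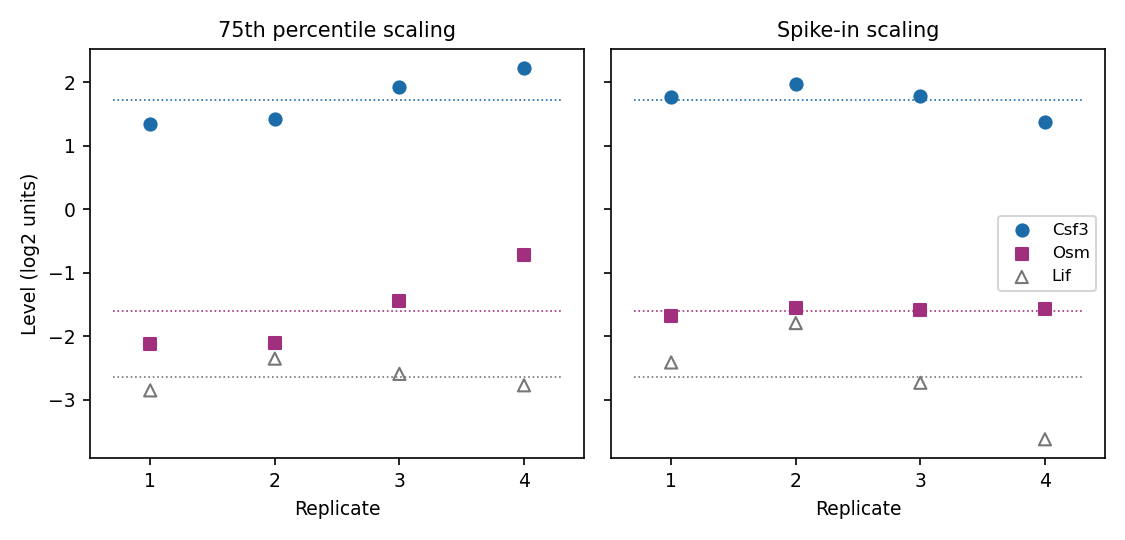
Levels of Csf3 (circles), Osm (squares) and the first Lif probe (open triangles, not well above background) on replicates 1 to 4, in log2 units, scaled on each array's 75th percentile (left) or on its spike-in spots (right); dotted lines are means over the 4 arrays. Osm spans -2.12 to -0.72 on the left and -1.68 to -1.56 on the right, and the Csf3 reading of replicate 4 is the highest on the left (2.23) and the lowest on the right (1.38).

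Among the 7362 other detected genes, the levels most like those of Csf3, after each gene's own mean was subtracted, belonged to E2f1, Akna and Ubn1, with root mean square differences of 0.007, 0.01 and 0.017 log2 units over the 4 arrays. The pattern was a common one, since 755 genes (10.3%) lay within 0.1 of it. For Osm the nearest were Bhlhe23, Sbk1 and Chm at 0.017, 0.028 and 0.046, and 48 genes (0.652%) lay within 0.1. The Osm signals stayed within 1.22-fold, while the 75th percentiles taken off were 128, 131, 98.5 and 49.0. Genes at background were not among those compared, so how many of them share the Osm pattern was not counted. The 4 values per gene are too few for a correlation.

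Lif, which encodes leukaemia inhibitory factor, was the member on the border of detection, and its 2 probes disagreed. The probe for the curated transcript (NM_022196) gave signals of 17.8, 25.6, 16.4 and 7.19. It was positive and significant on all 4 arrays but well above background on none. Of the 308 negative control spots, 1, 1, 6 and 3 reached it on replicates 1 to 4. Its background-subtracted signal was 18.3, 26.1, 16 and 7.39, so replicate 2 was highest and replicate 4 lowest, and the software's error ran from 23.8 to 62.9% of the signal. The probe for a predicted transcript (XM_008770359) read 0.267, -3.70, -3.31 and -3.14 and was positive and significant on no array. Among all genes that were well above background on no array, 7.99% were positive and significant on all 4, so Lif was 1 of 611 such genes among 7650.

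The remaining 7 members gave no signal that the arrays could separate from background on more than 2 cultures. Their 10 probes gave 40 readings, between -9.68 and 13.1 after background subtraction. All 40 lay within the range of the negative control spots of the same array, and 8 exceeded the 95th percentile of those spots. The range is wide on replicate 3, with a highest spot of 90.1 against a 95th percentile of 6.84. The negative control spots are copies of 1 probe sequence, so they do not show how background varies between sequences. The positive and significant mark was set on 8 of the 40 readings (20.0%). The same mark was set on 28.2% of the readings of all 10057 named probes that were well above background on no array, and on 3.57 to 6.17% of the negative control spots. For such spots the processed signal is no measurement: wherever the mark was absent, it equalled the software's error estimate within 5%, apart from 1, 1, 1 and 6 sample spots on replicates 1 to 4. The background-subtracted signals, which carry no such floor, are therefore given for these genes, and their levels are not ordered.

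Il6, whose product drives fever and the acute phase response, read -6.46, 7.12, 4.38 and 0.977 (NM_012589), with the looser mark on replicate 2. In all 4 arrays at least 11 negative control spots read as high. The 3 probes of Il10, the macrophage-restraining cytokine, read between -6.81 and 6.16, and a single reading, 6.16 on replicate 3, had the mark. The marked readings of Il6 and Il10 fell on different arrays, from which nothing is read because so few readings were marked.

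The subunit genes of interleukins 12 and 23 had the looser mark on 1 or 2 arrays each, and no 2 of them on the same array. Il12a, which encodes the subunit particular to interleukin 12, read -3.89, -1.23, -1.10 and 5.05 (NM_053390), with the mark on replicate 4. Il12b, the shared subunit, read 13.1, -7.39, 4.6 and -4.27 (NM_022611), with the mark on replicate 1, where 3 negative control spots were as bright. Its spot on replicate 3 lies in an area of low signal in the middle of that array. Detected spots around it read a median of 0.66 log2 units lower than on the other arrays, so that reading counts for less. No other member probe lies in that area. Il23a, the subunit particular to interleukin 23, read -4.21, 6.40, 8.60 and 2.88 (NM_130410) and had the mark on replicates 2 and 3, the most of these 7 genes. No array had marks for both subunits of either cytokine. Such marks were set on 20.0% of the readings of these 7 genes, below the 28.2% over all named probes that were well above background on no array. With marks this few, their falling on different arrays says nothing about the subunits.

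Csf1 encodes M-CSF, the main survival factor of macrophages, and Csf2 encodes GM-CSF. The first Csf1 probe (NM_023981) read -6.49, 0.0445, 2.60 and 7.28, and the second, for a predicted transcript, lay between -3.65 and 2.11 with no mark. Csf2 read -9.68, -2.78, -2.39 and 7.36 (NM_053852). Both genes had the looser mark on replicate 4 alone, where 3 negative control spots reached each. None of these readings lay as high as the dimmest spot that was well above background.

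Promoter sequence was in hand for 4 of the 10 genes, Il6, Il12a, Il23a and Csf2. Those of Il6 and Csf2 are shown because both genes are textbook examples of induced cytokine promoters and both read as background here. Each is the 250 bases before the transcription start, 5′ to 3′ on the gene's strand, from RefSeq on GRCr8. Capitals mark matches on either strand to part of the kappa-B site of NF-kB factors (GGNNTTNCC), a C/EBP site (TTGCNNAA), a STAT site (TTCNNNGAA), an AP-1 site (TGANTCA) and the core of CK-1, an element of colony-stimulating factor promoters (GAGATTCC).
Il6, chr4:5894576-5894825, minus strand: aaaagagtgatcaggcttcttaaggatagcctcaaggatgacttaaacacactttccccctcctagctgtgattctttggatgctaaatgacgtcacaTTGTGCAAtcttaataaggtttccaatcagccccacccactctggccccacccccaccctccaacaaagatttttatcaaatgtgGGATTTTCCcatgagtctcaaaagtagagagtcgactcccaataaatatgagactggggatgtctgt
Csf2, chr10:38889674-38889923, minus strand: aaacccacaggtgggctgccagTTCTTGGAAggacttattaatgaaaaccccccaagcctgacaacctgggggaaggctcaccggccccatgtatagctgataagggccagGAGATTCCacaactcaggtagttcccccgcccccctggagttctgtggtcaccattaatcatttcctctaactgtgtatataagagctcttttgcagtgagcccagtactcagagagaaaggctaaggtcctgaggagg

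The Il6 window holds a kappa-B match, GGATTTTCC, at 67 to 59 bases before the start and a C/EBP match, TTGTGCAA, at 152 to 145 bases. The Csf2 window holds the CK-1 core at 139 to 132 bases and a STAT match, TTCTTGGAA, at 228 to 220 bases. Of the other windows, those of Il12a and Il23a hold a kappa-B match each, GGAAAGTCC at 75 to 67 bases and GGTTTTCCC at 187 to 179 bases. No matches overlapped, and the AP-1 motif was in none of the 4 windows. Over the 27457 rat windows of this length, 13.3% hold the kappa-B motif, 9.2% the C/EBP motif, 7.52% the STAT motif, 6.36% the AP-1 motif and 0.71% the CK-1 core. A match is a run of letters and not a shown binding site, and the arrays give no reading on promoter activity. Sites that depart from the searched letters are not marked, so lower case does not show that a site, such as a kappa-B site in Csf2, is absent.

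Other cytokines of these families were mostly undetected too. Of 10 measured relatives, 2 were detected, 1 was on 1 array and 7 were on none, beside 44.4% of all measured genes detected. Ebi3, which encodes a subunit that pairs with the products of Il12a and Il27, read 3.48, 3.51, 4.03 and 4.40, a mean of 3.85 ± 0.44 (SD, n = 4). Il34, which encodes a second ligand of the M-CSF receptor, read -0.74, -1.22, -0.59 and -0.31, a mean of -0.72 ± 0.38 (SD, n = 4); its spot, too, falls within that dim area of replicate 3. The relatives Il11, Cntf, Il20, Il22, Il24, Il3 and Il5 were well above background on no array, and Ctf1 was on 1. The Il24 spot also lies in the dim area. Il27, Clcf1 and Il19 were not measured by a named probe.

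Receptor genes were detected for part of the set. Of 13 measured receptor genes, 5 were detected (38.5%), 1 was on 1 array and 7 were on none. The share was near that of all genes (44.4%). For interleukin 6 both chains were: Il6r, the binding chain, lay at -0.75 ± 0.36 and Il6st at 1.22 ± 0.14 (levels, SD, n = 4). For oncostatin M and leukaemia inhibitory factor the partner chains Osmr and Lifr were well above background on no array and positive and significant on none. The G-CSF receptor gene Csf3r was well above background on replicate 2 alone, reading -4.81, -2.11, -3.95 and -3.34. Thus Osmr and Csf3r, receptor genes of the 2 detected cytokines, did not count as detected. Csf3r was nevertheless marked on 1 array, and Il6st, the shared chain of the oncostatin M receptor, was detected.

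The receptors of the macrophage growth factors differed by chain. Csf1r, the M-CSF receptor, read 1.04, 0.92, 0.83 and 1.05, a mean of 0.96 ± 0.10 (SD, n = 4). Csf2ra, the binding chain for GM-CSF, read 3.33, 3.18, 3.98 and 4.16, a mean of 3.66 ± 0.48. Relative to the typical detected gene it deviated by -0.26, -0.42, 0.26 and 0.40. These values are the same on the spike-in scale by construction, because either scale moves all genes of an array together. On the spike-in scale itself Csf2ra read 3.76, 3.74, 3.83 and 3.31, with replicate 4 lowest. The signalling partner of Csf2ra, Csf2rb, was well above background on no array, though positive and significant on all 4. The same held within the interleukin 10 receptor, where Il10rb was detected at 3.87 ± 0.12 and Il10ra, the binding chain, was only positive and significant on all 4 arrays. Il12rb1, Il12rb2 and Il11ra1 were well above background on no array, and Il23r and Il27ra were not measured by a named probe. The brighter Il12rb2 probe lies in the dim area of replicate 3. A probe that stays at background can also be a poor probe, so these readings do not show that a chain was absent.

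**Figure D3:**
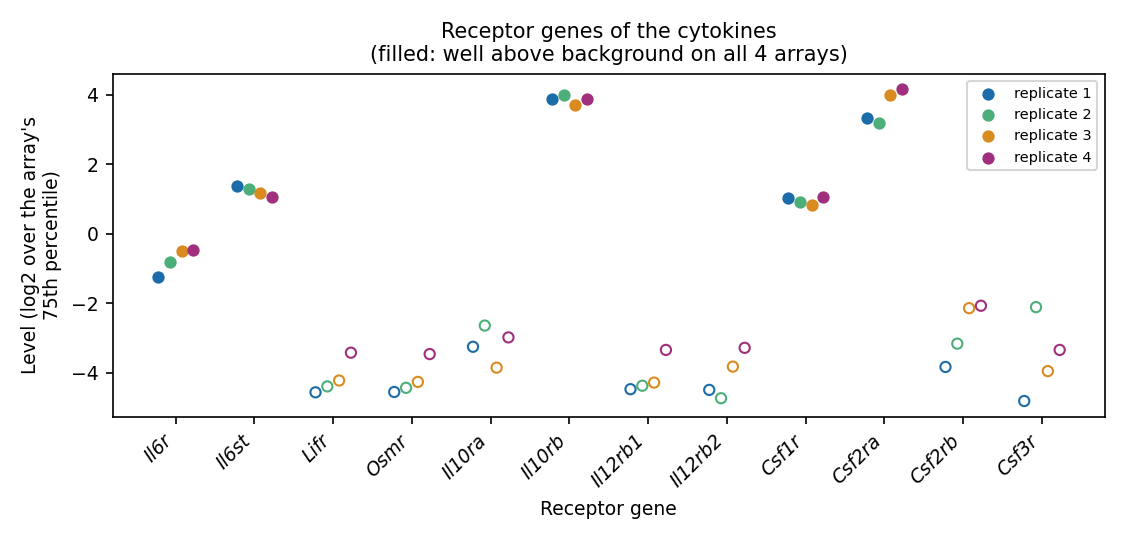
Levels of 12 receptor genes of the cytokines on replicates 1 to 4, in log2 units over each array's 75th percentile; filled points mark genes well above background on all 4 arrays and open points the rest, many of which sit at the software's error estimate. The 5 filled genes are Il6r, Il6st, Il10rb, Csf1r and Csf2ra; probes differ in affinity, so heights are not comparable between genes.

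Downstream of the receptors most listed genes were detected, beside 44.4% of all measured genes. Of 12 kinases, STATs and adaptors, 10 were (83.3%), namely Jak1, Jak2, Tyk2, Stat3, Stat5a, Stat5b, Stat6, Ptpn11, Shc1 and Grb2. The exceptions were Jak3 and Stat4, the latter being the main STAT of interleukin 12 signalling. Stat3 read 2.97, 3.04, 3.90 and 3.68, a mean of 3.40 ± 0.47 (SD, n = 4). Of 11 feedback inhibitors and targets of these cytokines, 8 were detected (72.7%). Among them Socs3, the inhibitor that STAT3 induces, read 2.46, 2.54, 3.38 and 3.59, a mean of 2.99 ± 0.58. With its 2 probes averaged it read lower, at 0.86, 0.74, 1.79 and 1.98. The others were Cish, Pim1, Bcl3, Cebpd, Junb, Il1rn and Nfil3. Socs1 was well above background on 1 array, Il4r on 2 and Socs2 on none. Relative to the typical detected gene, Stat3 deviated by -0.36, -0.30, 0.45 and 0.18 and Socs3 by -0.47, -0.39, 0.33 and 0.50. In these terms both had the same lower and upper pair of replicates as Csf3 and Osm. So had Csf2ra and Zc3h12a, and the share of all detected genes with this pairing was not counted. The Csf3 pattern was a common one, with 755 of 7362 other detected genes (10.3%) within 0.1 log2 units of it. For Osm the pairing held only narrowly with normexp background correction and quantile normalization. Whether the shared order reflects a link between these genes was not tested. On the spike-in scale itself, which shifts all genes of an array together, replicate 4 was the lowest for Stat3 and Socs3, at 2.83 and 2.74.

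**Figure D4:**
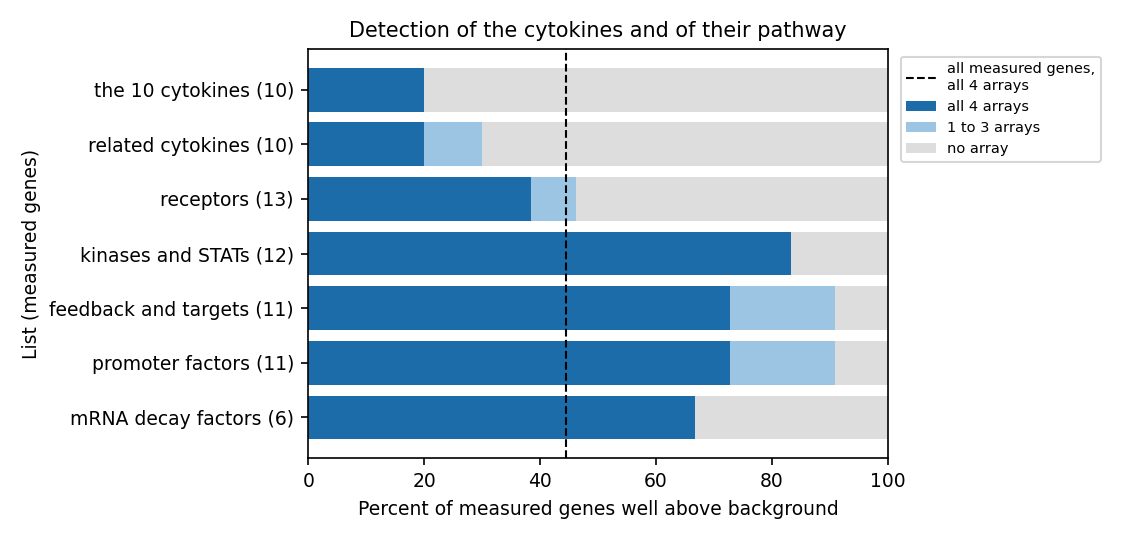
Share of the measured genes of each list (vertical axis, number measured in brackets) that were well above background on all 4 arrays, on 1 to 3 or on none, in percent. The dashed line marks the 44.4% of all measured genes; the 10 cytokines (20.0%), their relatives (20.0%) and the receptors (38.5%) lie below it and the 4 other lists (66.7 to 83.3%) above it.

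Most listed factors that act on the promoters and messages of these cytokines were detected, beside 44.4% of all measured genes. Of 11 measured transcription factor genes, 8 were detected (72.7%), namely Nfkb1, Rela, Cebpb, Jun, Irf1, Irf5, Maf and Nfatc1. Fos was well above background on 1 array, Batf on 3 and Irf8 on none. The Irf8 spot lies in the dim area of replicate 3. Of 6 measured genes of mRNA stability factors, 4 were detected (66.7%). Zc3h12a, whose ribonuclease product degrades the Il6 message, read 1.04, 0.91, 1.69 and 2.10, a mean of 1.43 ± 0.56 (SD, n = 4). With its 2 probes averaged it read -0.1, -0.21, 0.42 and 0.87. Zfp36, which encodes tristetraprolin, a decay factor of AU-rich cytokine messages, was well above background on no array and positive and significant on all 4. Its paralogs Zfp36l1 and Zfp36l2 and the stabilizing factor gene Elavl1 were detected, and Arid5a was well above background on no array. Rel, Rc3h1 and Khsrp were not measured by a named probe. Over these 6 lists together, 37 of 63 genes were detected (58.7%), beside 44.4% of all measured genes. The lists were picked by hand with earlier results known, and the difference was not tested.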

How the data were processed

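Messenger RNA of 4 separate exposed cultures was measured on 4 one-colour Agilent arrays of 1 slide. The deposited intensities were read by Agilent Feature Extraction 11.0.1.1, per the file headers and the submitters' processing notes, and were background-corrected and detrended within each array and not normalized between arrays. From the deposited processed intensity, log2 was taken, spots marked as outliers were left out, spots of a probe were averaged, and the 75th percentile of the array's 45598 sample probes was taken off. A gene took its brightest probe. Names came through accessions in a RefSeq table of GRCr8, which matched 21109 probes; the headers name an older build, so no probe coordinates are given. No member spot was saturated or marked as an outlier. The arrays' number limits the precision, and there is no read depth.

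The members and the lists were chosen with earlier results of these data known; 2 further genes, left out of the lists and their counts, are not reported here. With 1 group, no test between conditions was made. Named genes were all 10 members, their receptors, Stat3, Socs3, Zfp36 and Zc3h12a with values, the listed genes by detection, and the 3 detected genes nearest in pattern to Csf3 and Osm. Ebi3 and Il34 were given values after they were seen, being the 2 detected relatives. The motifs were also chosen after the data were seen. Steps were tested on simulated data. Python 3.11.15, pandas 2.3.3, R 4.3.3 and limma 3.58.1 were used.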

Additional observations from a re-analysis of the deposited data

Results flagged for a closer look

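Over 25 sets of 4 values from members and named genes, 2 had 1 array far from the other 3, judged by Dixon's 95% limit for the gap over the whole range; chance gives about 5% of sets. The background-subtracted signal of Osm was 29.4, 30.5 and 30.2 on replicates 1, 2 and 4 and 37.6 on replicate 3, a gap of 0.866 of the range. That of the second Lif probe was 0.267 on replicate 1 against -3.70, -3.31 and -3.14, a gap of 0.859 of the range, with all 4 readings at background.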

How the results depend on the processing

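The count of detected members was 2 or 3 under every alternative run, the third gene being Lif under the looser mark and above the 95th percentile of the negative control spots. Leaving out 1 replicate at a time gave 37 to 38 pathway genes, beside 44.5 to 47.7% of all measured genes. It could not change the 2 members, as every member was marked on all 4 arrays or on none. Over the other alternatives the pathway count ran from 30 (all probes of a gene) to 43 (the looser mark or the negative control limit). The share of all measured genes moved with the rule too. It was 44.4% as reported, 38.6% with all probes, 55.4% with the looser mark and 55.2% with the negative control limit. The SD of Osm was 0.67 as reported, 0.38 without replicate 4, 0.21 with normexp and quantile normalization and 0.06 with spike-in scaling. That of Csf3 was 0.42, and 0.25 with spike-in scaling. That of Lif was 0.22, and 0.09 with normexp, 0.38 with quantile normalization, 0.76 with spike-in scaling and 0.13 without replicate 2. Their cause was not tested. Taking the percentile over detected probes lowers every level by construction. No paired analysis was possible because only 1 group was analysed. Signal over background limits the 8 undetected members, for which the arrays give no level.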
